A study of Homo sapiens with 6 samples.

Results

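The 9 genes described here encode chemoattractant receptors of myeloid cells: the chemokine receptors CCR1, CCR2, CCR7, CX3CR1 and CXCR4, the formyl peptide receptors FPR1, FPR2 and FPR3, and the complement receptor C5AR1. They were chosen by name from the 17513 genes of the deposited tables, and all 9 were present. By the series description, the RNA came from macrophages made from the human monocytic leukemia line THP1, harvested after 48 h in conditioned medium. That medium came from KYSE150, an esophageal squamous carcinoma line of human origin, which bore shSPP1#2, a hairpin named for SPP1, or the reference hairpin shNC. SPP1 encodes osteopontin, a secreted glycoprotein. Each medium was represented by 3 polyadenylated RNA libraries, called shNC and shSPP1#2 replicates 1 to 3, and both groups share the THP1 origin and the KYSE150 medium. The sample labels name the KYSE150 line as the source and give neither how THP1 cells were turned into macrophages nor a medium without tumor cells. A single hairpin against SPP1 was used, and the labels do not say whether replicates are separate cultures; p-values then speak only of the spread among these libraries, possibly technical.

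Chemoattractant receptors are membrane proteins that couple to G proteins of the inhibitory class and steer a leukocyte along a gradient of ligand. C5AR1 binds the complement fragment C5a, and the formyl peptide receptors bind N-formylated peptides released by bacteria and mitochondria. CCR1 answers chemokines such as CCL3 and CCL5, CCR2 answers CCL2 and marks classical blood monocytes, CX3CR1 binds fractalkine on endothelium, CXCR4 binds CXCL12, and CCR7 guides mature dendritic cells towards lymph nodes through CCL19 and CCL21. Loss of CCR2 as monocytes become macrophages, and gain of CCR7 on maturation, are textbook features of these cells.

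The libraries held 18113591 to 20626346 estimated counts. Of 15 monocyte and macrophage markers, 14 lay at 1 FPKM (the authors' level scaled by gene length and library total) or more in every library, with LAPTM5 at 725 to 823 FPKM and FCER1G at 346 to 457 FPKM. The exception was MRC1, at 0.01 to 0.03 FPKM, and CD163 was low at 1.33 to 1.69 FPKM. Of 14 squamous epithelial markers, PERP (23.5 to 25.7 FPKM) was the only one at 1 FPKM or more in every library, KRT8 lay at 0.69 to 1.16 FPKM, and KRT5, KRT6A, KRT14 and EPCAM were listed at 0 in some libraries. The RNA therefore carried most listed markers of monocytes and macrophages, and few squamous markers of the line named in the sample labels. With no library of unconverted THP1 cells, these values do not tell macrophages from monocytes. On the first principal component (34% of the variance), replicate 2 of both media lay at one end, at 10.1 for shNC and 6.62 for shSPP1#2, against -7.58 to -0.021 for the other libraries.

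The receptor transcripts fell into 3 abundant members, 2 scarce ones and 4 near the detection limit. C5AR1 was the most abundant, at 56.8, 56.8 and 57.0 FPKM in shNC medium replicates 1, 2 and 3 and 62.1, 60.8 and 61.9 FPKM in shSPP1#2 medium. CCR1 measured 40.7, 40.9 and 40.6 FPKM in shNC medium and 42.0, 40.8 and 43.0 FPKM in shSPP1#2 medium. CXCR4 measured 28.7, 29.9 and 29.6 FPKM in shNC medium and 32.7, 32.7 and 27.6 FPKM in shSPP1#2 medium. These 3 receptors supplied 97.9% to 98.7% of the summed FPKM of the 9 members in every library. CCR7 stood far lower, at 1.95, 2.21 and 2.22 FPKM in shNC medium and 1.49, 1.91 and 1.76 FPKM in shSPP1#2 medium. CX3CR1 was listed at 0.37, 0.43 and 0.40 FPKM in shNC medium and 0.14, 0.38 and 0.48 FPKM in shSPP1#2 medium. No library put CCR2 or any formyl peptide receptor above 0.13 FPKM.

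**Figure D1:**
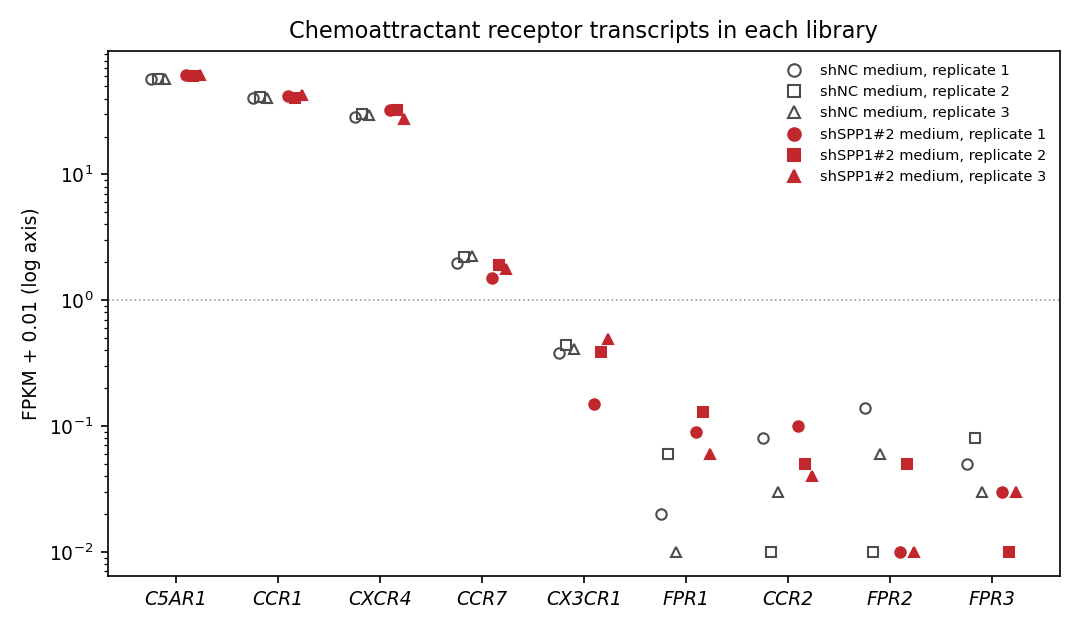
FPKM of the 9 receptors in each library, plotted as FPKM + 0.01 on a log axis, with open symbols for shNC medium, filled symbols for shSPP1#2 medium and symbol shape for the replicate. C5AR1, CCR1 and CXCR4 lie at 27.6 to 62.1 FPKM, CCR7 at 1.49 to 2.22, and CCR2, FPR1, FPR2 and FPR3 at 0 to 0.13. The dotted line marks 1 FPKM.

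The order C5AR1, CCR1, CXCR4, CCR7, CX3CR1 held in 6 of 6 libraries. Neighbours in this order did not overlap over the 6 libraries: C5AR1 ran from 56.8 to 62.1 FPKM, CCR1 from 40.6 to 43.0, CXCR4 from 27.6 to 32.7, CCR7 from 1.49 to 2.22 and CX3CR1 from 0.14 to 0.48. CX3CR1 at its lowest (0.14 FPKM in shSPP1#2 replicate 1) was barely above FPR2 at its highest (0.13 FPKM in shNC replicate 1). The levels of FPR1, CCR2, FPR2 and FPR3 overlapped one another, so these 4 could not be ranked.

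Of the 9 members, 7 had a start site in the RefSeq promoter table (GRCh38.p14); CCR7 and FPR3 had no entry. The 150 bases before the most upstream listed start are shown for 2 abundant receptors, C5AR1 and CXCR4, and for the scarce CX3CR1, whose windows hold at most 16 bases of annotated exon. Each is written 5′ to 3′ on the gene's strand, in lower case, with matches to 4 motifs in capitals. The first, TATAAA, is the TATA box. The second motif, CCAAT, is bound by the factor NF-Y. The GC box bound by SP1 was searched as GGGCGG. A core of sites for the myeloid factor PU.1, the product of SPI1, was searched as GAGGAA, and all motifs were searched on both strands.
C5AR1, chr19:47309711-47309860, plus strand: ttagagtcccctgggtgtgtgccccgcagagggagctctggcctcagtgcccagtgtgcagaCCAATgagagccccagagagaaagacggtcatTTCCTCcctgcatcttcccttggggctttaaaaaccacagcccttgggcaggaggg
CXCR4, chr2:136118150-136118299, minus strand: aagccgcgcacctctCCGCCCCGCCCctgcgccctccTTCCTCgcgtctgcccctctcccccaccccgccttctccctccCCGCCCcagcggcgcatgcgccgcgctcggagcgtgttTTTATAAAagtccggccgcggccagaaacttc
CX3CR1, chr3:39281736-39281885, minus strand: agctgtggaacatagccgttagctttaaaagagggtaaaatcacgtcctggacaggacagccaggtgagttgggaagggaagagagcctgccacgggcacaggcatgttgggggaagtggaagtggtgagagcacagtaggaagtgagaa
The C5AR1 window held a CCAAT 84 to 88 bases before the start and a GAGGAA match on the opposite strand at 51 to 56 bases. The CXCR4 window, at 71.3% G and C, held 3 GGGCGG matches on the opposite strand, of which 2 overlap by 1 base, a GAGGAA match on the opposite strand at 108 to 113 bases, and a TATAAA at 25 to 30 bases that overlaps a match on the opposite strand. The CX3CR1 window held none of the 4 motifs in the forms searched, and other forms of PU.1 sites were not searched. Among 35116 RefSeq windows of the same length, the TATA box was in 6.71%, the NF-Y motif in 23.5%, the GC box in 36.8% and the PU.1 core in 14.8%. In the windows not shown, CCR1, CCR2 and FPR1 each held 1 CCAAT match and FPR2 held 2, with none of the other motifs. A match is a description of the letters, and no binding was measured here.

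Among the 3 abundant members, C5AR1 was the one whose groups lay apart between the media. Each shSPP1#2 library (60.8 to 62.1 FPKM) was above each shNC library (56.8 to 57.0 FPKM). The means were 56.9 ± 0.132 FPKM (SD, n = 3) in shNC medium and 61.6 ± 0.669 FPKM (SD, n = 3) in shSPP1#2 medium, a difference of 8.31%. In the edgeR quasi-likelihood fit over 13555 genes, the log2 fold change, shSPP1#2 minus shNC, was 0.11 (standard error 0.042, 95% interval 0.020 to 0.20, Benjamini-Hochberg adjusted p = 0.633). The difference was therefore larger than the spread between replicates but did not pass an adjusted p of 0.05. C5AR1 (Entrez 728) is annotated on the plus strand of chromosome 19, 47290023 to 47322066 (GENCODE v29, GRCh38), with no exon shared with another annotated gene. The C5AR1 window shown above, which precedes a RefSeq start, lies inside these bounds and holds no annotated exon.

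CCR7 was lower in each shSPP1#2 library (1.49 to 1.91 FPKM) than in any shNC library (1.95 to 2.22 FPKM). The means were 2.13 ± 0.153 FPKM (SD, n = 3) in shNC medium and 1.72 ± 0.213 FPKM (SD, n = 3) in shSPP1#2 medium. Behind these levels were 84.66, 84.99 and 97.2 estimated counts in shNC medium and 64.97, 81.98 and 76 in shSPP1#2 medium. The closest libraries, shNC replicate 1 and shSPP1#2 replicate 2, differed by less than 3 counts. The log2 fold change was -0.31 (standard error 0.147, 95% interval -0.62 to -0.0035, edgeR adjusted p = 0.725). CCR7 (Entrez 1236) is annotated on the minus strand of chromosome 17, 40553769 to 40565472.

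CCR1 overlapped between the media. Its mean was 40.7 ± 0.187 FPKM (SD, n = 3) in shNC medium and 41.9 ± 1.15 FPKM (SD, n = 3) in shSPP1#2 medium, and shSPP1#2 replicate 2 lay inside the shNC range. The log2 fold change was 0.038 (95% interval -0.053 to 0.13, edgeR adjusted p = 0.916), and the interval as a fold was 0.964 to 1.09. CCR1 (Entrez 1230) is annotated on the minus strand of chromosome 3, 46201709 to 46208396.

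CXCR4 was above the shNC range in shSPP1#2 replicates 1 and 2 and below it in replicate 3. The means were 29.4 ± 0.651 FPKM (SD, n = 3) in shNC medium and 31.0 ± 2.95 FPKM (SD, n = 3) in shSPP1#2 medium. The log2 fold change was 0.075 (95% interval -0.061 to 0.21, edgeR adjusted p = 0.892). It was 0.16 without shSPP1#2 replicate 3, 0.036 without shSPP1#2 replicate 1 and 0.028 without shSPP1#2 replicate 2, and none of these passed. CXCR4 (Entrez 7852) is annotated on the minus strand of chromosome 2, 136114349 to 136118165.

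CX3CR1 rested on few counts, 22.99, 24 and 25 in shNC medium and 9, 24 and 30 in shSPP1#2 medium. The low value was that of shSPP1#2 replicate 1, and the other libraries of that medium lay near or above the shNC libraries. The log2 fold change was -0.24 with a 95% interval from -0.95 to 0.46 (edgeR adjusted p = 0.937), and without shSPP1#2 replicate 1 it was 0.12. The direction for CX3CR1 thus rested on 1 library. CX3CR1 (Entrez 1524) is annotated on the minus strand of chromosome 3, 39263494 to 39281735.

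**Figure D2:**
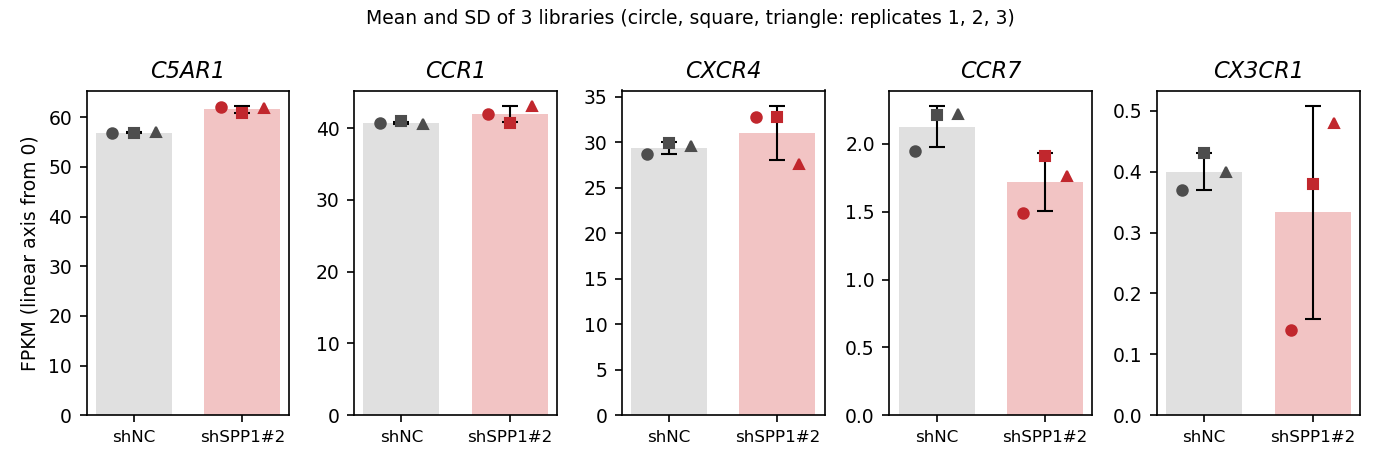
FPKM of the 5 receptors with enough counts to be tested, with bars for the mean of 3 libraries, error bars for the SD and a symbol for each replicate, on linear axes from 0. C5AR1 in shSPP1#2 medium (60.8 to 62.1) clears the shNC libraries (56.8 to 57.0), CCR7 lies lower in shSPP1#2 medium, and CCR1, CXCR4 and CX3CR1 overlap.

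The remaining 4 members did not reach the count filter and were not tested in the main fit. The formyl peptide receptors lie together on chromosome 19: FPR1 (Entrez 2357) at 51745172 to 51804110 on the minus strand, FPR2 (Entrez 2358) at 51752026 to 51770526 and FPR3 (Entrez 2359) at 51795163 to 51826189 on the plus strand. No annotated exon of one overlaps an exon of another gene. FPR1, the high-affinity receptor, had 0.57, 1.71 and 0 estimated counts in shNC medium and 3.13, 4.59 and 2.02 in shSPP1#2 medium. FPR2, which also binds lipid mediators and serum amyloid A, had 5, 0 and 2 counts in shNC medium and 0, 2 and 0 in shSPP1#2 medium. FPR3 had 2, 2.94 and 1 counts in shNC medium and 1, 0 and 0.92 in shSPP1#2 medium. The counts of FPR1 were higher in shSPP1#2 medium in each library, its FPKM met at 0.05 in shNC replicate 2 and shSPP1#2 replicate 3, and the FPKM of FPR2 and FPR3 overlapped. CCR2 (Entrez 729230, plus strand of chromosome 3, 46353734 to 46360928) had 4.08, 0 and 1 counts in shNC medium and 4.99, 2 and 2 in shSPP1#2 medium.

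At this depth a count of 0 allows up to 3 counts, or 0.145 to 0.168 CPM (counts scaled to library size), so absence of these transcripts was not shown. When the low-count filter was dropped, the log2 fold change of FPR1 was 1.57 with a 95% interval from -0.47 to 3.62 (edgeR adjusted p = 0.874), and that of CCR2 was 0.76 (-1.17 to 2.69, edgeR adjusted p = 0.917). Intervals for FPR2 (-4.22 to 0.88) and FPR3 (-3.91 to 0.97) also spanned 0. A difference between the media in any of these 4 receptors was not detectable.

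Neutrophils are another cell type that carries FPR1, and a list of their markers was read in this RNA from THP1-derived cells. Of 12 listed, 11 were present and 5 lay at 1 FPKM or more, led by AZU1 (6.77 to 8.54 FPKM) and CSF3R (5.07 to 6.14 FPKM), with FCGR3B, LTF and CAMP listed at 0 in some libraries. Their summed level was 23.9 to 25.6 FPKM in shNC medium and 23.7 to 26.8 FPKM in shSPP1#2 medium. For CCR7, 13 markers of mature dendritic cells were read: 7 lay at 1 FPKM or more in every library, FSCN1 (179 to 198 FPKM) and CD83 (67.2 to 69.4 FPKM) the highest, while CD80 and CLEC9A were listed at 0 in some libraries. Their summed level was 294.1 to 300.2 FPKM in shNC medium and 279.9 to 294 FPKM in shSPP1#2 medium, lower in each shSPP1#2 library. Among the 10 tested markers of mature dendritic cells, 4 were higher and 6 lower, and 0 passed (edgeR). The part of this sum in the CCR7 values was not tested. Monocyte and macrophage markers summed to 2635 to 2838 FPKM in shNC medium and 2570 to 2645 FPKM in shSPP1#2 medium. These ranges overlapped only from 2635 to 2645 FPKM, and the sum was led by LAPTM5 and FCER1G. Among the 14 tested markers of that list, 4 were higher and 10 lower, and 0 passed (edgeR). The groups did not overlap in CPM for 4 of these 14, all lower in shSPP1#2 medium, beside 5.5% of all genes. FCER1G was among those 4 (log2 fold change -0.18, 95% interval -0.31 to -0.0545, edgeR adjusted p = 0.575). The part of these markers in the C5AR1 values was not tested. In bulk RNA, fewer cells of a type and less RNA per cell cannot be told apart.

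Over the 5 tested members, 0 passed an adjusted p of 0.05 in edgeR, where 0% of all 13555 genes did. Limma on log2 FPKM also called 0 members. DESeq2 with its independent filter gave an adjusted p to 1893 genes, among the members only to C5AR1 (0.377), and without that filter to all 5, of which 0 passed. C5AR1 and CCR7 lay under an unadjusted edgeR threshold of 0.05, as did 6.85% of all genes. For CCR7 the unadjusted p was 0.0477, beside 0.0509 with total-count scaling (edgeR), 0.145 in DESeq2 and 0.028 in limma on log2(FPKM + 1). With single libraries left out, the unadjusted edgeR p ran from 0.0253 to 0.199 for CCR7 and from 0.0279 to 0.0529 for C5AR1. The groups did not overlap in CPM for 2 of the 5, beside 11.1% of all genes in either direction. Of these C5AR1 was higher, beside 5.63% of all genes, and CCR7 lower, beside 5.5%. With 5 genes, these shares are a description. The median log2 fold change of the 5 was 0.038, with 3 higher and 2 lower, and that of all tested genes was -0.00030, with 6759 higher and 6796 lower.

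**Figure D3:**
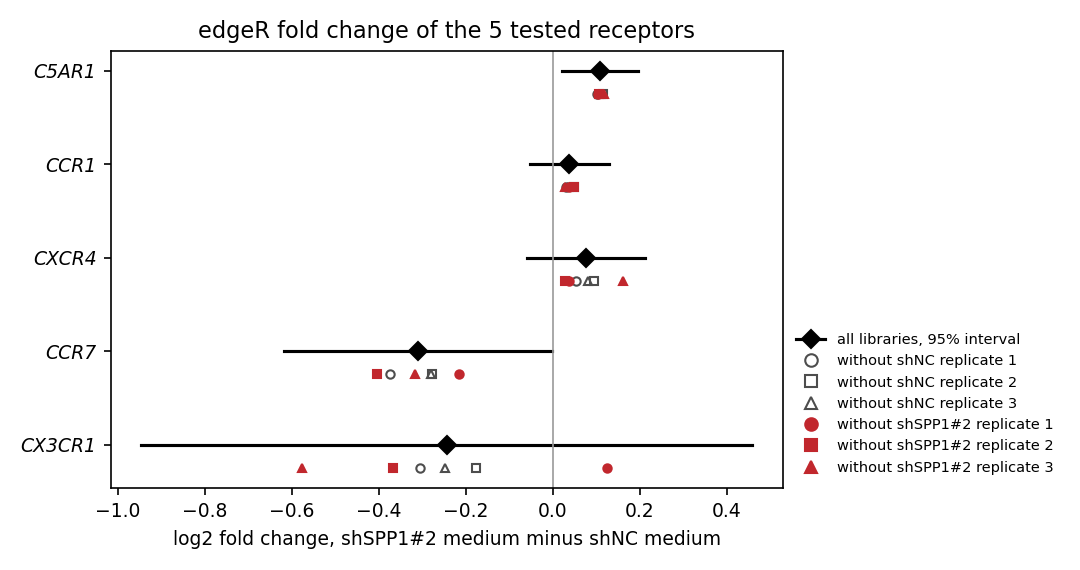
Log2 fold change, shSPP1#2 medium minus shNC medium, of the 5 tested receptors from edgeR (diamonds, with lines for the 95% interval), and the same value with each library left out (small symbols). C5AR1 stays between 0.10 and 0.12 and CCR7 between -0.40 and -0.22, while CX3CR1 runs from -0.58 to 0.12.

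Ratios of FPKM within a library do not depend on how libraries are scaled to each other. For every 100 units of C5AR1, CCR7 stood at 3.43, 3.89 and 3.89 in shNC medium and at 2.40, 3.14 and 2.84 in shSPP1#2 medium. CCR1 stood at 71.5, 72.1 and 71.1 in shNC medium and at 67.7, 67.0 and 69.6 in shSPP1#2 medium. C5AR1, the denominator of each ratio, itself lay apart between the media, so these ratios are no separate measure of CCR7 or CCR1. CXCR4 per 100 units of C5AR1 was 50.4 to 52.7 in shNC medium and 44.6 to 53.8 in shSPP1#2 medium, and CX3CR1 was 0.651 to 0.757 and 0.226 to 0.776, both overlapping. The summed FPKM of all 9 members was 129 to 130.4 in shNC medium and 135 to 139 in shSPP1#2 medium, of which C5AR1 made up 43.5% to 44.1% and 44.5% to 45.9%.

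Across the 6 libraries, the genes whose log2 CPM followed C5AR1 most closely were the amino acid transporter SLC7A5 (r = 0.991), the endoplasmic reticulum stress sensor ERN1 (r = 0.983) and the xylosyltransferase XYLT1 (r = 0.979), out of 10615 candidates. These r are Pearson coefficients over 6 points that share library and scaling, and 73 candidates reached 0.9. The difference between the media was not removed, so these r and those below in part restate it. SLC7A5 itself was higher in each shSPP1#2 library in CPM (log2 fold change 0.21, edgeR adjusted p = 0.17). Among the other tested members, r with C5AR1 was 0.737 for CCR1, 0.493 for CXCR4, -0.422 for CX3CR1 and -0.747 for CCR7.

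Other chemoattractant receptors were mostly scarcer. Of 26 listed, 24 were present, and together with the 9 members 6 of 33 receptors lay at 10 FPKM or more in every library while 21 stayed below 1 FPKM in every library. The 3 abundant ones outside the members were C5AR2, a C5a receptor that does not couple to G proteins (23.3 to 27.0 FPKM), ACKR3, an atypical CXCL12 receptor (11.2 to 14.2 FPKM), and the G protein-coupled receptor GPR35 (10.6 to 12.2 FPKM). The other receptor of C5a therefore lay just below CXCR4 (27.6 to 32.7 FPKM). C5AR2 measured 26.8, 26.3 and 23.3 FPKM in shNC medium and 27.0, 26.9 and 23.6 FPKM in shSPP1#2 medium, low in replicate 3 of both (log2 fold change -0.0069, 95% interval -0.12 to 0.10).

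None of the 14 tested receptors of that list passed (edgeR), 7 were higher and 7 lower, and their median was 0.049. ACKR3, which competes with CXCR4 for ligand, had a log2 fold change of -0.12 (95% interval -0.29 to 0.049), and GPR35 one of 0.11 (-0.012 to 0.24). GPR35 measured 10.58, 10.81 and 11.87 FPKM in shNC medium and 11.95, 12.16 and 11.99 FPKM in shSPP1#2 medium. Like C5AR1 it was thus higher in each shSPP1#2 library in FPKM, but its groups overlapped in CPM. CXCR2, a receptor of neutrophil chemokines, measured 0.53, 0.31 and 0.49 FPKM in shNC medium and 0.19, 0.30 and 0.28 FPKM in shSPP1#2 medium (log2 fold change -0.81, 95% interval -1.49 to -0.12, edgeR adjusted p = 0.633). PTAFR, the receptor of platelet-activating factor, measured 1.76 to 1.81 FPKM in shNC medium and 1.99 to 2.19 FPKM in shSPP1#2 medium (log2 fold change 0.20, edgeR adjusted p = 0.760). Both receptors lay at low levels, and neither passed.

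Several ligands of the described receptors were transcribed in the same cells. Of 21 listed ligands 18 were present and 9 tested, and 0 passed (edgeR). All 9 tested had a negative log2 fold change, beside 6796 of all 13555 tested genes, with a median of -0.078. The values ran from -0.87 to -0.0082, and only CCL2, CCL3 and CCL4 had a 95% interval below 0. With 9 genes this is a description. CCL3, a ligand of CCR1, was the most abundant of the listed ligands. It measured 557, 614 and 579 FPKM in shNC medium and 483, 551 and 484 FPKM in shSPP1#2 medium. Its log2 fold change was -0.21 (95% interval -0.33 to -0.090, edgeR adjusted p = 0.483). CCL4 measured 34.2, 48.2 and 41.6 FPKM against 30.3, 32.5 and 37.3 FPKM (log2 fold change -0.31, edgeR adjusted p = 0.581). Both genes have near-identical paralogs, which makes the division of reads uncertain. The CCL3 paralog CCL3L1, not on the list, averaged 584 FPKM in shNC medium and 528 FPKM in shSPP1#2 medium. Its log2 fold change was -0.15 (edgeR adjusted p = 0.486), and its groups did not overlap in CPM. CCL2, the main ligand of CCR2, was scarce at 0.57 to 1.99 FPKM, with a log2 fold change of -0.87 (95% interval -1.58 to -0.16, edgeR adjusted p = 0.633). CCL5, another CCR1 ligand, lay at 133 to 151 FPKM, and MIF, a cytokine that also binds CXCR4, at 221 to 266 FPKM, both overlapping between the media. ANXA1, a formyl peptide receptor ligand, lay at 73.9 to 80.1 FPKM, although its receptors were near the detection limit. CXCL12, the chemokine of CXCR4, was at 0.16 to 0.35 FPKM, and C5, the precursor of C5a, at 1.32 to 1.63 FPKM.

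The signaling genes below the receptors gave no call. All 19 listed genes were tested, 0 passed (edgeR), 9 were higher and 10 lower, and the median was -0.0039. RAC2, a small GTPase of blood cells, lay at 519 to 569 FPKM, the G protein beta subunit GNB1 at 130.1 to 139 FPKM and the gamma subunit GNG5 at 107 to 127 FPKM. GNAI2, the inhibitory alpha subunit of leukocytes, lay at 82.4 to 93.7 FPKM with a log2 fold change of -0.054 (95% interval -0.16 to 0.056). PIK3CG, the catalytic subunit of the phosphoinositide kinase that G proteins switch on, measured 6.08, 6.10 and 6.25 FPKM in shNC medium and 6.47, 6.52 and 6.74 FPKM in shSPP1#2 medium, a log2 fold change of 0.087 (edgeR adjusted p = 0.800).

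Genes that switch the receptors off likewise gave no call. Of 13 listed arrestins, receptor kinases and RGS proteins 12 were tested, 0 passed (edgeR), 5 were higher and 7 lower, and the median was -0.010. RGS16 (173 to 197 FPKM), RGS1 (146 to 174 FPKM) and RGS10 (59.5 to 69.1 FPKM), which speed the shutdown of G proteins, were the highest, and each overlapped between the media. RGS2 had a log2 fold change of 0.11 (95% interval -0.028 to 0.25) and RGS14 one of -0.16 (-0.37 to 0.046). RGS1, like C5AR2, was low in replicate 3 of both media, at 147 and 146 FPKM.

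**Figure D4:**
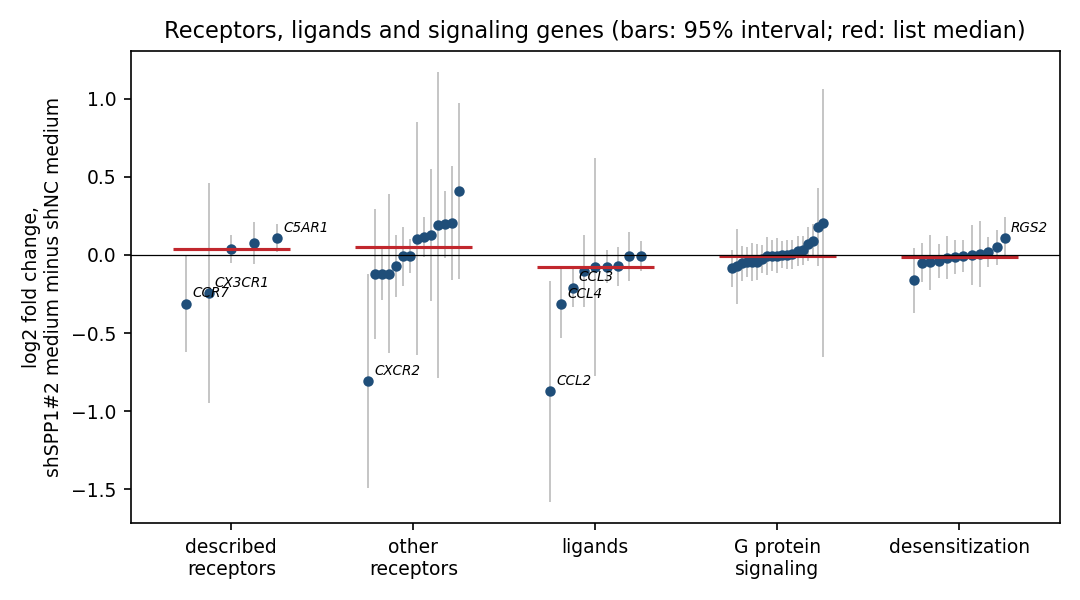
Log2 fold change, shSPP1#2 medium minus shNC medium, of the tested genes of 5 lists (points, with grey lines for the 95% interval and red lines for the list median). The ligands all lie below 0, from -0.87 to -0.0082 with a median of -0.078, and most of their intervals span 0. Signaling and desensitization genes centre at -0.0039 and -0.010.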

How the data were processed

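The 6 libraries of polyadenylated RNA were read on the DNBSEQ platform, per the labels' protocols. The authors deposited estimated counts and FPKM values per gene. HISAT2 2.0.4, Bowtie2 2.2.5, RSEM and GRCh38.p13 are named, without roles, per the submitters' processing notes; strand use and annotation: not given in the sources used here. For testing, the deposited estimated counts were rounded to whole numbers, filtered with filterByExpr, TMM-scaled and compared by the edgeR 4.0.16 quasi-likelihood fit in R 4.3.3 (contrast shSPP1#2 minus shNC, no block), with Benjamini-Hochberg adjustment over all 13555 genes. The 20 stray lines of the deposited FPKM table were dropped, and levels between genes were compared in FPKM only.

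Standard errors (log2) had a median of 0.064 in genes averaging 2 or more in log2 CPM (prior count 2). The members and lists were chosen with earlier results of these data known. Named genes were all 9 members, the 3 most abundant and the 2 of smallest p per list, and the 3 genes most correlated with the most abundant member. CCL2, GNAI2, ANXA1, CXCL12 and C5 were named for their known roles, after their values were seen. CCL3L1, outside the lists, was named as a paralog of CCL3, also after its values were seen. Marker lists of T and NK cells and B cells were also read. Their summed levels were 253 to 297 and 2.37 to 2.89 FPKM in shNC medium and 232 to 259 and 2.23 to 2.35 FPKM in shSPP1#2 medium, led by GNLY, GZMB, CD22 and CD79A. GNLY alone lay at 214 to 274 FPKM and made up most of the T and NK sum. Of the 11 T and NK markers, CD3D, CD3E, CD2 and CD8A were not present. Alternatives used DESeq2 1.42.0, limma 3.58.1, other scalings, no filter, a replicate block and left-out libraries. Gene positions are from GENCODE v29, promoter windows from RefSeq, and plots were drawn with matplotlib 3.10.9.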

Additional observations from a re-analysis of the deposited data

How the results depend on the processing

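No member passed an adjusted p of 0.05 under any of 15 alternatives that gave it an adjusted p, and the median log2 fold change of the 5 tested members ran from 0.028 to 0.048. C5AR1 stayed between 0.10 and 0.12 (adjusted p 0.242 to 1) and CCR7 between -0.40 and -0.20 (adjusted p 0.436 to 1); among the 5, DESeq2 with its independent filter gave an adjusted p only to C5AR1 (0.377). CX3CR1 turned to 0.123 without shSPP1#2 replicate 1, and with single libraries left out it reached -0.578. The count of called genes, 0 of 13555 in edgeR, was 18 with no low-count filter, 25 of the 1893 genes to which DESeq2 gave an adjusted p, 12 of 17480 in DESeq2 with no independent filter, 1 with limma on log2(FPKM + 0.1) and 59 with the replicate block. It ran from 1 to 10 with single libraries left out, and was 7 without replicate 2 of both media. That setting and DESeq2 with no independent filter were added after seeing the data, and the cause of the differences in count was not tested. Without replicate 2 C5AR1 was at 0.11 and CCR7 at -0.37. Replicate numbers were not taken as pairing the libraries: same-numbered libraries had deviations correlated at 0.0892 to 0.286, and 5 of 6 libraries correlated best with their own number. With the replicate block C5AR1 was at 0.108 (adjusted p 0.242) and CCR7 at -0.316 (adjusted p 0.436), and no member was called. Depth limits CCR2 and the formyl peptide receptors, which rest on 7.86 to 14.07 estimated counts over 6 libraries.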

Other observations

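The 3 shNC libraries lay closer together in the FPKM of C5AR1 than counting error. Their coefficient of variation in FPKM was 0.233%, against 1.98% expected from a mean of 2540 counts, and for CCR1 it was 0.46% against 2.19%. In shSPP1#2 medium the same values were 1.09% against 1.88% for C5AR1 and 2.74% against 2.12% for CCR1. In TMM-scaled CPM the shNC libraries lay relatively further apart than in FPKM. They were at 127.7, 130.2 and 129 for C5AR1 and 105, 107.6 and 105.3 for CCR1. An SD of 3 libraries is itself imprecise, and the cause was not tested. The standard error of the fit, 0.042 on the log2 scale for C5AR1, does not rest on this narrow spread alone, since edgeR shares the dispersion across genes.

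CXCR4 and CX3CR1 showed the reverse in shSPP1#2 medium, with coefficients of variation of 9.51% against 3.12% from counting for CXCR4 and 52.4% against 21.8% for CX3CR1. The library that stood off was replicate 3 for CXCR4 and replicate 1 for CX3CR1. For CCR7 the spread was close to counting error in both media, 7.2% against 10.6% in shNC and 12.4% against 11.6% in shSPP1#2.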
